A study of Mus musculus with 3 samples.

Results

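The proteasome genes were examined in wounded mouse fibroblasts that had received soluble micrografts (MG) together with the MEK inhibitor PD0325901. They were taken as all genes whose symbol begins with Psm, continues with a letter from a to g and ends in a number, which gave 48 of 43472 genes. The cells were primary fibroblasts from the tail tips of C57BL/6 mice, scratched in culture, and MG is the cell-free extract of mouse skin applied to them diluted in growth medium. PD0325901 blocks MEK, the kinase upstream of ERK, and the methods of the study give its dose as 1 μM. Replicates 1, 2 and 3 of this 1 condition, harvested at 5 h, make up the data, without an untreated or MG-only group, and how many animals supplied each culture is not given in the sources used here.

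The proteasome is the protease complex that degrades proteins tagged with ubiquitin. Its core particle is a barrel of alpha and beta rings, in which 3 beta subunits carry the cutting sites, and its regulatory particle, made of a base with ATPases and a lid, recognises, strips and unfolds the tagged proteins. Under interferon, many cells replace the constitutive catalytic subunits Psmb5, Psmb6 and Psmb7 by Psmb8, Psmb9 and Psmb10, which forms the immunoproteasome and favours peptides for presentation on MHC class I. Proteasome genes are known to be driven together by the transcription factor NRF1 (Nfe2l1) when proteasome capacity falls short.

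The values are normalized counts, that is, the reads on a gene divided by the size factor of its library. Unless said otherwise, values that come in threes are those of replicates 1, 2 and 3 in this order. The libraries held 22540518, 27037783 and 17244505 reads on genes. A count of 0 reads allows up to 3 reads, which correspond to 2.61, 2.11 and 3.56 normalized counts. Such limits and the intervals given here cover counting error only. The proteasome genes took 0.661% (95% exact binomial interval 0.658 to 0.665), 0.618% (0.615 to 0.621) and 0.657% (0.654 to 0.661) of the reads in replicates 1, 2 and 3. Replicate 2 stood apart in several markers. All 8 fibroblast markers were detected, while the summed level of 7 leukocyte markers was 151, 86.0 and 686 normalized counts and that of 4 keratinocyte markers at most 2.37. The leukocyte marker Ptprc was at most 1.74 normalized counts, and most of the sum came from Lyz2 (123, 62.7 and 601). The fibroblast marker Thy1 had 2031, 15760 and 1652 normalized counts and Lum 5073, 289 and 1164, and the endothelial marker Tek had 6.95, 185 and 2.37. Of 5 skeletal muscle markers, 2 were detected, with a summed level of 2642, 8494 and 5668, and Myod1 was at 0. The part of these differences in the results was not tested, and the ratios and the spread are therefore also given without replicate 2.

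Promoter sequences from RefSeq (GRCm38.p6) were found for 40 of the 48 genes, Psmb7 not among them, and each spans 250 bases before to 50 after a transcription start. They are shown for Psmb5 with Psmb8 and Psmb6 with Psmb9, the catalytic subunits and counterparts that differed most in level. The promoter of Psmb10 held none of the motifs searched and is not printed. In the following stretches, on the strand of the gene and 5′ to 3′, capitals mark the letters TGACNNNGC, the core of the antioxidant response element that NRF1 and NRF2 can bind, or CCAAT, each on either strand.
Psmb5 (chr14:54617946-54618245, minus strand): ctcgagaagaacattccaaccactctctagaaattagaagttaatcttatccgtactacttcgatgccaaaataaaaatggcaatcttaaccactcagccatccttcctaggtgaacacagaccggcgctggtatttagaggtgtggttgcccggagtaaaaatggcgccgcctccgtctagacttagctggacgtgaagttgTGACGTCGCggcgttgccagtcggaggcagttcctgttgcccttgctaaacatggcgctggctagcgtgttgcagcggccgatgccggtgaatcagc
Psmb8 (chr17:34197945-34198244, plus strand): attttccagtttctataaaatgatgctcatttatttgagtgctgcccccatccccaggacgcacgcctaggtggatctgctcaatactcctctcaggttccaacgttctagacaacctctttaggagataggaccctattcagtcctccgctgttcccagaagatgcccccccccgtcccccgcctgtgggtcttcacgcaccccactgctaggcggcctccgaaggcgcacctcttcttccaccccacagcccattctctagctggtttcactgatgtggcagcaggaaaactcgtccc
Psmb6 (chr11:70525107-70525406, plus strand): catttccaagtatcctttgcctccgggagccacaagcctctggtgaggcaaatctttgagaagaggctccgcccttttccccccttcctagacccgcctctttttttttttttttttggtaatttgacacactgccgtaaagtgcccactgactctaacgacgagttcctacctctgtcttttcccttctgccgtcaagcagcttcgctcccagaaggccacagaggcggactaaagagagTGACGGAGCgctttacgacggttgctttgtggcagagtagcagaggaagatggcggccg
Psmb9 (chr17:34187281-34187580, minus strand): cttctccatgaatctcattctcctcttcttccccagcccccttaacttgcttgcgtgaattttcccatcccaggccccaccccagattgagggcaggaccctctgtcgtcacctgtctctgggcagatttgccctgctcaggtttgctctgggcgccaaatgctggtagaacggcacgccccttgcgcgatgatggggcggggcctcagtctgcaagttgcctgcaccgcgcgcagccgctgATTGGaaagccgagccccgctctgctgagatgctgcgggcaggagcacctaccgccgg
The constitutive pair Psmb5 and Psmb6 held the antioxidant response element core, the immunoproteasome pair did not, and Psmb9 held a CCAAT box. Over all proteasome promoters this core occurred in 6 of 43, against 12.4% of 32851 promoters of the genome and 14.3% of the promoters of detected genes. An element of interferon regulatory factors was found in 5 of 43 proteasome promoters and 3.44% of all promoters. The searched stretches of Psmb8, Psmb9 and Psmb10 held none. Those of Psmb8 and Psmb9 lie inside the annotated genes, whose outermost starts are at 34197721 and 34187764. Sequence before these starts was not searched. CCAAT occurred in 32.6% of proteasome promoters and 37.4% of all.

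The particles held a further motif in unequal counts. The letters CCGGAAG, a site of ETS factors, stood on either strand in the promoters of 9 of 14 regulatory particle genes but of 1 of 11 core particle genes. By promoters this was 10 of 15 and 1 of 12, against 8.86% of all promoters and 17.5% of those of detected genes. Over all proteasome promoters it was 15 of 43, with Psme3, Psme4, Psmg1 and Psmg3 outside both particles. The core particle gene was Psma6, with matches at -132, -2 and 17 bases from the transcription start. The matches of the regulatory particle lay between -125 and -6 bases from the transcription start. They are shown here with 15 bases on either side, the match in capitals, because the counts were most unequal for this motif.
Psmc1 (chr12:100110159-100110195, plus strand): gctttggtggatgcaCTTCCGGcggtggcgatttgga
Psmc6 (chr14:45329709-45329745, plus strand): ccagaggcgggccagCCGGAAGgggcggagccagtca
Psmd2 (chr16:20651611-20651647, plus strand): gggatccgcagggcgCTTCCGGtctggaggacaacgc
Psmd4 (chr3:95042718-95042754, minus strand): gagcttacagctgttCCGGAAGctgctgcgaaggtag
Psmd6 (chr14:14120969-14121005, minus strand): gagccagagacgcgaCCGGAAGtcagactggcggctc
Psmd11 (chr11:80428589-80428625, plus strand): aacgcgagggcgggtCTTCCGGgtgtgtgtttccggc
Psmd12 (chr11:107479496-107479532, plus strand): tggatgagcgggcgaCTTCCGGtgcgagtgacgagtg
Psmd13 (chr7:140882373-140882409, plus strand): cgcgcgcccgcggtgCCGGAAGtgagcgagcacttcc
Psmc2 held the letters in the promoters of both its listed starts. Matches of the 4 motifs were searched separately and may share letters, and a match is a description of sequence and not a binding site.

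The proteasome genes were abundant and, apart from 3 of them, detected in every library, that is, with at least 10 normalized counts in each. The 45 detected genes had means from 133 (Psmg4) to 11971 normalized counts (Psmd8), with a median of 3055. Over all 12204 detected genes the median was 511. The 3 genes under the limit were Psma8, Psmb9 and Psmb11. Psma8, an alpha subunit of the testis, had 2.61, 17.6 and 0 normalized counts, from 3, 25 and 0 reads. Psmb11, the catalytic subunit of the thymus, had 2.61, 0.705 and 4.74, from 3, 1 and 4 reads. Both were thus at or near the limit of a few reads, Psma8 in replicate 2 excepted.

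**Figure D1:**
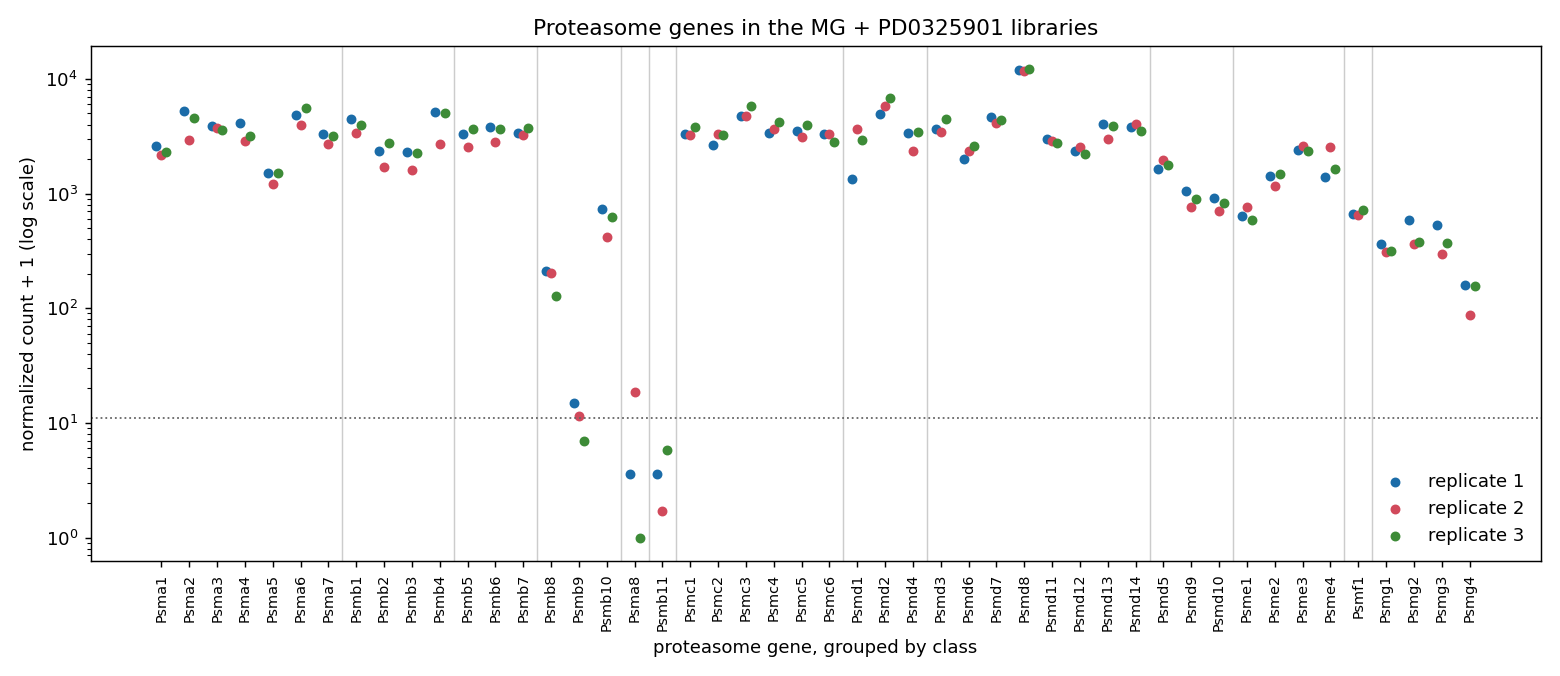
Normalized counts plus 1 (log axis) of the 48 proteasome genes (horizontal axis, grouped by class) in replicates 1, 2 and 3 of MG + PD0325901, each point a library. The dotted line marks the detection limit of 10 normalized counts. Subunits of the core and regulatory particles lie between 1211 and 12129, and Psmb8, Psmb9 and Psmb10 lie below them.

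Among the catalytic subunits, the constitutive genes stood far above their immunoproteasome counterparts in each library. Psmb5, the chymotrypsin-like subunit (chromosome 14, 54614119 to 54618022, GRCm38), had 3315, 2563 and 3645 normalized counts, and its counterpart Psmb8 (chromosome 17, 34197721 to 34201454) had 211, 202 and 128. Psmb6, the caspase-like subunit, had 3842, 2836 and 3689, while Psmb9 (chromosome 17, 34181987 to 34187764) had 13.9, 10.6 and 5.93, resting on 16, 15 and 5 reads. The trypsin-like subunit Psmb7 had 3392, 3215 and 3729 normalized counts, and Psmb10 (chromosome 8, 105935735 to 105938444) had 740, 417 and 625. The ranges of the 3 libraries did not overlap in any of the 3 pairs. The immunoproteasome genes were not alike among themselves, in the order Psmb10, Psmb8 and Psmb9 in each library.

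To compare genes with each other, the normalized counts were divided by length in kb. Per kb of exonic length, which joins the exons of all annotated transcripts, the log2 ratio of Psmb8 to Psmb5 was -6.07 ± 0.60 (SD, n = 3), that of Psmb9 to Psmb6 -9.45 ± 0.69 and that of Psmb10 to Psmb7 -1.57 ± 0.37. Many annotated exons of Psmb8 and Psmb7 lie outside the main transcripts, and per kb of coding length the ratios were -4.22, -8.41 and -2.55. By coding length Psmb8 stood at 6.09%, 7.55% and 3.36% of Psmb5 in replicates 1, 2 and 3, Psmb9 at 0.382%, 0.394% and 0.170% of Psmb6, and Psmb10 at 22.1%, 13.2% and 17.0% of Psmb7. The order of the ratios was the same by either length, with Psmb10 nearest to its counterpart and Psmb9 farthest. With 3 libraries no two-sided exact test of such a ratio can go below p = 0.25, so none is given. Without replicate 2 the exonic ratios were -6.31, -9.66 and -1.38.

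**Figure D2:**
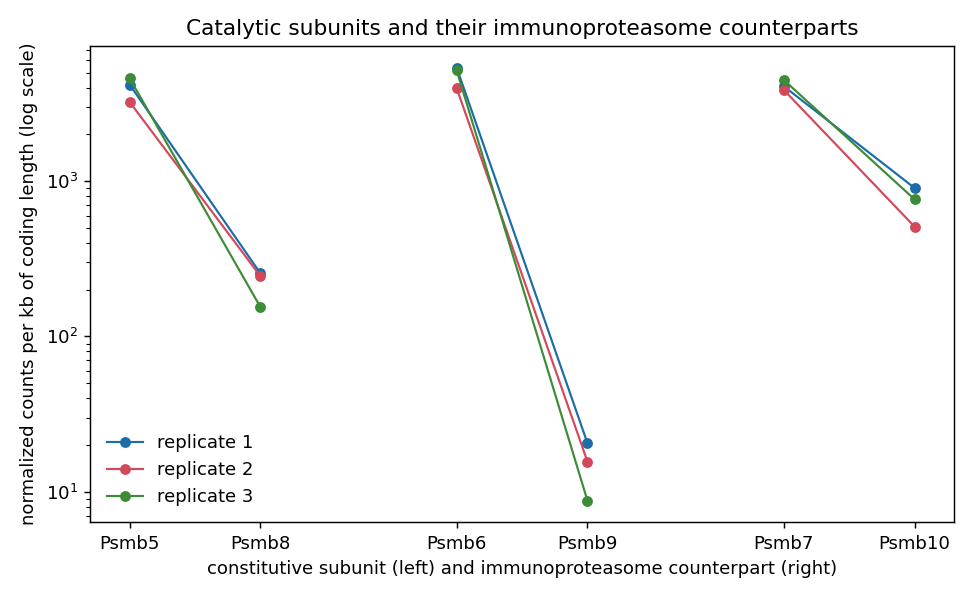
Normalized counts per kb of coding length (log axis) of the constitutive catalytic subunits and, joined by a line for each library, their immunoproteasome counterparts. Each line falls from left to right, least for Psmb7 to Psmb10, where Psmb10 reached 13.2% to 22.1%, and most for Psmb6 to Psmb9.

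Psmb8 and Psmb9 lie in the MHC beside the peptide transporter genes Tap1 and Tap2, and Psmb9 overlaps the start of Tap1 on the opposite strand. Replicate 3 had the lowest level of Psmb8, Psmb9, Tap1 and Tap2. Tap1 had 287, 330.5 and 178 normalized counts, and Tap2 had 1205, 673 and 634. Nlrc5, the transactivator of MHC class I genes, was also lowest there, with 42.6, 51.4 and 26.1, while the interferon-pathway gene Irf1 (134, 177 and 162) was not. Psmb8 was 1.65-fold higher in replicate 1 than in replicate 3 (two-sided exact binomial test on reads with Benjamini-Hochberg adjustment over all genes, adjusted p = 4.28e-05) and 1.04-fold higher than in replicate 2 (adjusted p = 0.715). The same exact test gave adjusted p = 0.202 for Psmb9 between replicates 1 and 3. Between replicates 2 and 3 the exact test gave adjusted p = 0.452 for Psmb9 and 0.360 for Tap2, so these were not separated. There it gave adjusted p = 9.21e-05 for Psmb8 and 2.31e-11 for Tap1. The summed level of the leukocyte markers was highest in replicate 3, mostly through Lyz2, while Ptprc and Cd74 (14.8, 5.64 and 5.93) were highest in replicate 1, and the part of these differences was not tested. Psmb10, outside the MHC, had its lowest level in replicate 2 instead.

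All 13 listed genes of antigen processing were detected, with means between 40.0 (Nlrc5) and 37941 normalized counts (Calr, a chaperone of class I assembly). B2m, the light chain of class I molecules, had 5832, 5856 and 5789 normalized counts, whereas the heavy chain gene H2-D1 had 2595, 1477 and 3929 and H2-K1 3028, 1747 and 3146. B2m was thus level over the libraries, and both heavy chain genes were lowest in replicate 2. Class I heavy chain genes are near copies of each other, so their reads may have been split or dropped.

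Levels within the core particle were close to each other. Its 14 constitutive genes, 7 of the alpha ring and 7 of the beta ring, had means between 1406 and 4802 normalized counts, a 3.41-fold range. The highest was Psma6, an alpha subunit, with 4870, 3970 and 5565 normalized counts, and the lowest was Psma5, also of the alpha ring, with 1497, 1211 and 1511. Of the 50-base windows of the annotated transcripts of Psma5, 49.1% also occur, letter for letter, in transcripts of other genes, chiefly the predicted gene Gm8394, and for Psmb5 the share was 47.4%. The study counted uniquely aligned reads of 50 bases, and reads from such windows can have been dropped or split; how many was not tested. In 25 of the 48 genes no window was shared. Per kb of exonic length the alpha ring ran from 800 ± 78.6 in Psma1 to 3891 ± 648 in Psma6 and the non-catalytic beta subunits from 854 ± 122 in Psmb1 to 2206 ± 711 in Psmb4 (SD, n = 3).

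In the regulatory particle, Psmd8 stood apart from the other 16 genes. This lid subunit had 12063, 11722 and 12129 normalized counts, and its library SD of log2(normalized count + 1) of 0.03 was the smallest of the detected proteasome genes. The next gene of the particle was Psmd2, the scaffold of the base, with a mean of 5850 ± 963 normalized counts (SD, n = 3), so the libraries of the pair did not overlap. Per kb of coding length Psmd8 had 11023 ± 201 and the next gene, Psma6, 6343 ± 1056, but per kb of exonic length Psmd8 (3916 ± 71.5), Psma6 (3891 ± 648) and Psmb5 (3531 ± 617) could not be separated by their spread. The 6 ATPases of the base, Psmc1 to Psmc6, which unfold the substrate, had means between 3075 and 5116 normalized counts, and per kb of exonic length from 611 ± 69.6 in Psmc2 to 2532 ± 286 in Psmc5. Psmd14, the deubiquitinase of the lid, had 3815, 4018 and 3544 normalized counts, and its partner Psmd7 had 4691, 4117 and 4421. The ubiquitin receptor Psmd4 had 3390, 2341 and 3434. The lowest lid gene was Psmd11 per kb of exonic length, with 450 ± 20.3, and Psmd12 per kb of coding length, with 1627 ± 111.

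The inhibitor and the chaperones were lower than the subunits of the core, except for the base chaperone Psmd5, and the activators ranged widely. Of the activators, the nuclear Psme3 had 2417, 2575 and 2346 normalized counts, and Psme1 and Psme2, which form the interferon-inducible ring, had means of 664 ± 89.4 and 1354 ± 170 (SD, n = 3). For Psme2, 28.3% of the windows were shared with other genes, chiefly its copy Psme2b. Psme4, the large nuclear activator, had 1408, 2542 and 1651 normalized counts and the lowest level of the activators per kb of exonic length, 223 ± 71.2. Psmf1, an inhibitor of the core particle, had 659, 655 and 714. The chaperones that build the core particle, Psmg1 to Psmg4, had means between 133 and 442, and those of the base, Psmd5, Psmd9 and Psmd10, between 812 and 1802. Ordered by level per kb of exonic length, 40 of the 44 neighbouring pairs of detected genes overlapped in their library values, and 41 by coding length, so the order was resolved in its broad steps and not gene by gene.

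The evenness of a complex was described by the SD of log2 mean levels per kb over its genes. It was 0.75 for the core and 0.89 for the regulatory particle by exonic length, and 0.45 and 0.74 by coding length. By coding length the value was 0.19 for 7 genes of the CCT chaperonin, a ring that folds cytosolic proteins. It was 0.66 for 13 genes of the initiation factor eIF3 and 0.96 for 9 genes of the COP9 signalosome, both relatives of the proteasome lid. Of the 8 chaperonin genes, Cct6a was left out for want of a coding length. It had the lowest mean of the 8, 4126 normalized counts. By coding length the core particle thus lay between these 7 chaperonin genes and the lid-like complexes. The regulatory particle lay between eIF3 and the COP9 signalosome by coding length alone, and below both by exonic length, where eIF3 had 1.10 and the COP9 signalosome 1.06, by principal transcript length (0.72 against 1.27 and 1.22) and with no division by length (0.56 against 0.95 and 0.77). The sets were not drawn alike. The core particle was taken without Psma8 and Psmb8 to Psmb10, while the COP9 signalosome was taken with both Cops7a and Cops7b. Cops7b was the lowest gene of the COP9 signalosome and Eif3j1 that of eIF3 by each length. The values without these genes were not computed. These are descriptions of few genes.

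The proteasome genes varied little between replicates. The median SD of log2(normalized count + 1) over the 3 libraries was 0.19 for the 45 detected proteasome genes, against 0.30 for all 12204 detected genes and 0.26 for the 6175 with a mean of at least 500. Without replicate 2 it was 0.11 for the proteasome genes and 0.20 for all detected genes. It was 0.14 for the COP9 signalosome, 0.20 for eIF3 and 0.27 for the CCT chaperonin. The highest library was more than 2-fold above the lowest in 1 of 45 proteasome genes, where 22.0% of all detected genes passed this limit, and more than 1.5-fold in 10, where 48.8% did. After Psmd8, the smallest spreads were those of Psma3, with 3923, 3770 and 3591 normalized counts, and Psmd11, with 3005, 2859 and 2746. The largest were those of Psmd1, Psmb4 and Psmg4.

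Psmd1, a scaffold of the base (chromosome 1, 86064387 to 86139151), was the 1 gene past 2-fold. It had 1328, 3676 and 2904 normalized counts, and was low in replicate 1 and high in the others. The log2 difference of replicate 1 from replicate 2 was -1.47 (exact binomial test, adjusted p = 8.87e-312) and from replicate 3 -1.13 (exact binomial test, adjusted p = 6.12e-130). Its fellow scaffold Psmd2 was also lowest in replicate 1, with 4897, 5831 and 6821. Psmd1 overlaps Gm21972, Gm22786 and Gm37914 on the same strand and Htr2b on the opposite strand. Whether reads were counted by strand is not given in the sources used here. Psmb4, a beta subunit, had 5126, 2701 and 5082 normalized counts, with replicate 2 apart, and the chaperone Psmg4 had 159, 86.0 and 154.

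Differences between single libraries were tested on the recovered reads by the exact binomial test, which compares these libraries and not conditions. With an adjusted p under 0.05 and a difference of more than 1.5-fold, 9 of 47 tested proteasome genes were called between replicates 1 and 2, where 36.3% of all genes were. Between replicates 1 and 3 it was 3 of 46 with a background of 17.9%, and between replicates 2 and 3 it was 7 of 47 with a background of 29.6%. With this fold limit, each share of proteasome genes was below that of all genes. Between replicates 1 and 2, Psma2, Psmb4, Psmb10, Psmg2, Psmg3 and Psmg4 were called higher in replicate 1, where 18.3% of all genes were, and Psma8, Psmd1 and Psme4 higher in replicate 2, where 17.9% were. Between replicates 1 and 3, Psmb8 and Psmg2 were called higher in replicate 1, with a background of 10.0%, and Psmd1 higher in replicate 3, with a background of 7.89%. Between replicates 2 and 3, Psma2, Psmb2, Psmb4 and Psmg4 were called higher in replicate 3, with a background of 13.2%, and Psma8, Psmb8 and Psme4 higher in replicate 2, with a background of 16.4%. At more than 2-fold the calls were 2, 1 and 1, with backgrounds of 20.1%, 8.90% and 16.3%. With no fold required they were 40, 29 and 40. These shares of 85.1%, 63.0% and 85.1% were above the backgrounds of 68.4%, 51.1% and 62.0%.

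Small shifts ran in the same direction through the core particle. In replicate 2, 13 of its 14 genes had their lowest level, Psma3 excepted, where 37.3% of all detected genes had theirs. The median deviation from the mean of the 3 libraries was -0.24 on the log2 scale in replicate 2, 0.14 in replicate 1 and 0.11 in replicate 3, while all detected genes had medians of 0.02, -0.02 and 0.00. Psma2, an alpha subunit, had 5279, 2921 and 4600 normalized counts, the widest spread of its ring. This gene overlaps AW209491 on the same strand. In each of the 4 chaperones of the core particle, replicate 1 was highest and replicate 2 lowest. Psmg3 had 528, 294 and 367 normalized counts, and Psmg2 had 585, 365 and 377. The regulatory particle had medians of -0.00, -0.03 and 0.16 in replicates 1, 2 and 3, with the lowest level in replicate 2 in 7 of 17 genes and the highest in replicate 3 in 9. In replicate 2 the median was -0.19 in the base chaperones and 0.14 in the activators, led by Psme4.

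**Figure D3:**
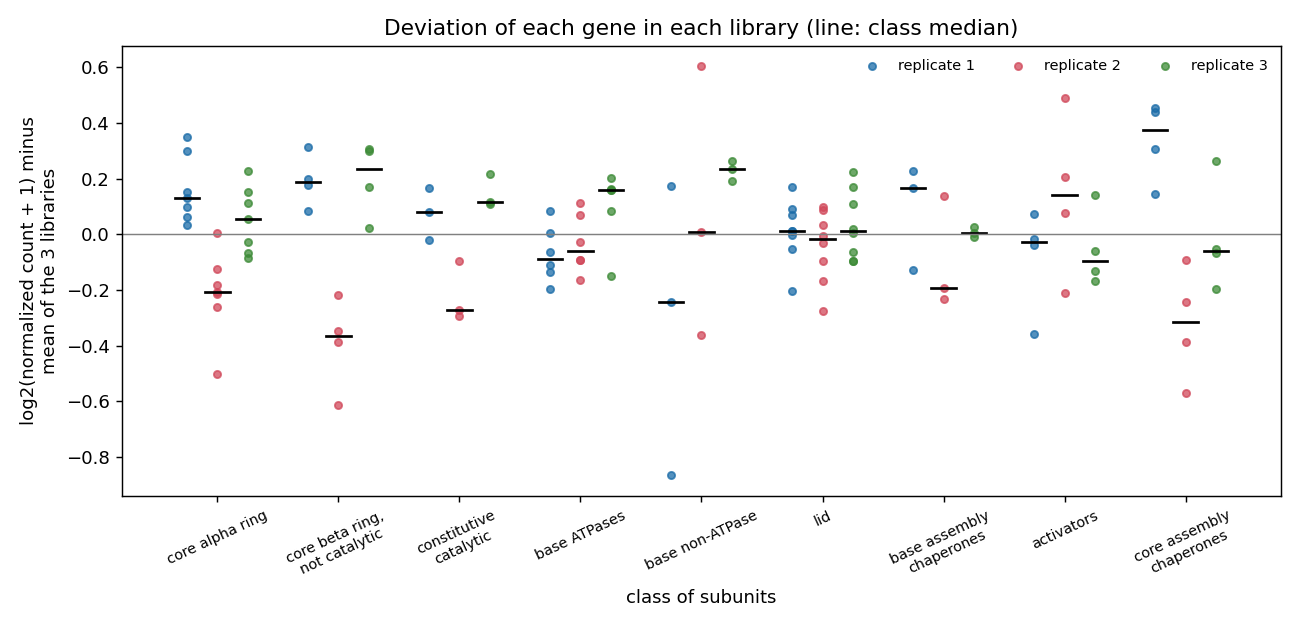
Deviation of each gene in each library from its mean over the 3 libraries, on the log2(normalized count + 1) scale (vertical axis), by class of subunits, with class medians as black lines. The medians of replicate 2 lie below 0 in the alpha and beta rings, the core chaperones and the base chaperones (-0.19), and less so in the base ATPases (-0.06). In the lid the 3 medians lie between -0.02 and 0.01.

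Transcript length moved with these deviations. Among all detected genes with a principal transcript in the annotation, the median deviation in replicate 2 was -0.39 for transcripts of up to 800 bases and 0.21 for those over 5000 bases, and in replicate 1 it ran the other way, from 0.34 to -0.16. The principal transcripts had a median length of 1162 bases in the core particle, 1636 in the regulatory particle and 3076 over all detected genes. Centred on the median of genes of like transcript length, the core particle deviated by -0.0016 in replicate 2, and 3 of its 14 genes had their lowest level there. By this centring, chosen after seeing the data, the shift of the core particle was of the size seen in other genes of its transcript length. What underlies the shift was not tested. By the same centring the regulatory particle had medians of -0.12, 0.08 and 0.10, with 10 of its 17 genes lowest in replicate 1. The 2 measures of length did not give the same result. Centred on genes of like coding length, the core particle deviated in replicate 2 by -0.10, with 10 of 14 genes lowest there. Psma2 (-0.54) and Psmb4 (-0.34) were below genes of like transcript length in replicate 2. Psmd1 deviated by -0.82 in replicate 1 and 0.56 in replicate 2 after centring on transcript length. The size depended on the length used. Psma2, with a principal transcript of 2911 bases, had a spread of 0.48 after centring on transcript length and 0.32 on coding length. For Psmb4 the spread was 0.30 and 0.41. For Psme4, with a transcript of 6491 bases, the deviation in replicate 2 went from 0.49 to 0.28. The core particle chaperones did not keep their shared order of libraries after centring on transcript length. Psmg1 then deviated by -0.08, 0.18 and -0.11 and Psmg2 by 0.21, 0.03 and -0.25. Psmg3 deviated by 0.23, -0.11 and -0.12 and Psmg4 by -0.03, -0.18 and 0.19. With this centring the median spread was 0.17 for the proteasome genes and 0.26 for 11168 detected genes.

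**Figure D4:**
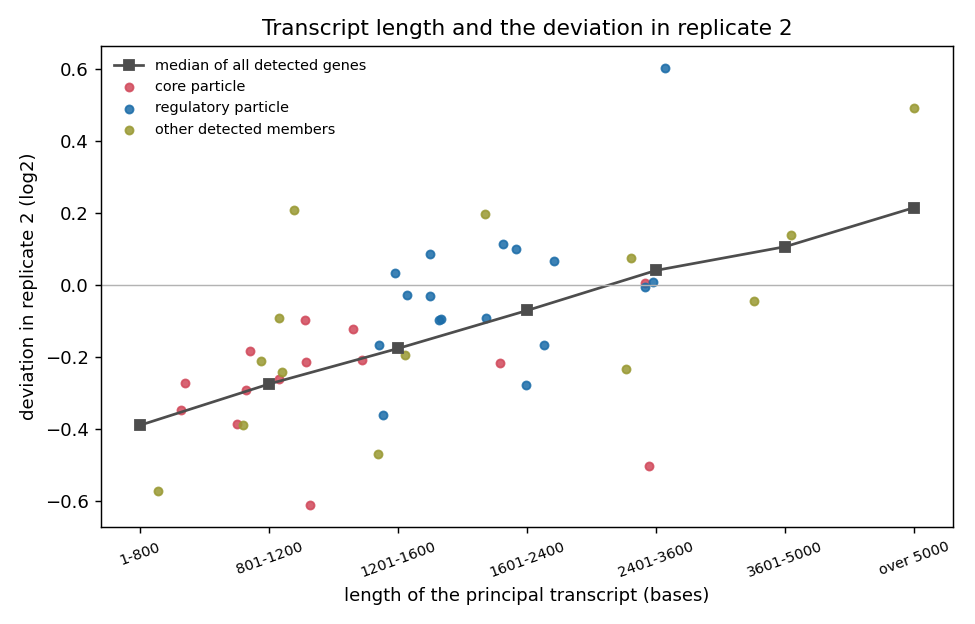
Deviation in replicate 2 on the log2 scale against the length of the principal transcript in bases, in 7 classes, with each gene placed within its class by length. Grey squares are medians of all detected genes and rise from -0.39 to 0.21, and the core particle genes lie around them apart from Psma2 and Psmb4.

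Genes that work with the proteasome were read from a list of 16 partners, all of them detected, with means between 475 and 10353 normalized counts. Vcp, the unfoldase that hands substrates to the proteasome, had the highest level with 10602, 9157 and 11302 in replicates 1, 2 and 3. Pomp, the chaperone that matures the core particle, had 4826, 2685 and 3708, with replicate 1 highest and replicate 2 lowest. Akirin2, which carries proteasomes into the nucleus, had 1756, 1029 and 947. The ubiquitin receptor Adrm1 had 1026, 1132 and 1402, and the deubiquitinases Usp14 and Uchl5 had 1932, 3372 and 1990 and 508, 485 and 430. The median spread of the list was 0.24 on the log2 scale.

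The regulators of proteasome genes were detected in every library. Nfe2l1 had 11751, 11465 and 16431 normalized counts, highest in replicate 3. Nfe2l2, the gene of NRF2, had 4752, 3706 and 4852, and its inhibitor Keap1 had 1399, 1187 and 1512. Ddi2, the protease that activates NRF1, had 932, 905 and 1107. Ngly1, the glycosidase that acts on NRF1 in the same route, had 498, 633 and 593. With the exception of Ngly1, these genes were lowest in replicate 2 and highest in replicate 3, where 37.3% and 27.9% of all detected genes were. Their median spread was 0.18. The exact binomial test gave adjusted p = 0.0509 (Nfe2l1) and 0.569 (Ddi2) between replicates 1 and 2. Between replicates 1 and 3 it gave adjusted p = 0.424 (Nfe2l2) and 0.0726 (Keap1). Of the core particle genes, 5 of 14 were highest in replicate 3 and 9 in replicate 1, where 27.9% and 31.5% of all detected genes were. A relation to the regulators was not tested.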

How the data were processed

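RNA-seq was available from 3 libraries of 1 condition. Per the labels and the methods of the study, the authors sequenced stranded mRNA libraries (50 bp, single-end), aligned them with TopHat2 2.0.13 to mm10, retained unique alignments, counted genes with HTSeq 0.5.3p3, used DESeq for the comparisons, and deposited a signal per gene, the read count divided by the size factor of the library. Annotation and strand setting are not given in the sources used here. A further 3 columns of per-sample values could not be assigned to a sample and were not used. Divided by what 1 read is worth, 100% of the values came out whole within 0.01 reads, which recovered the reads.

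Genes were called detected at 10 normalized counts in every library. Log2 values used a pseudocount of 1. Differences between single libraries were tested with the two-sided exact binomial test (doubled smaller tail) over all genes with at least 10 reads, with Benjamini-Hochberg adjustment. p-values measure counting error in these libraries only. No contrast between conditions was fitted. Without a fold limit the test called 10098 of 14771, 7317 of 14316 and 8889 of 14344 genes between replicates 1 and 2, 1 and 3, and 2 and 3. On simulated reads with counting error only, calls also required more than 1.5-fold. For replicates 1 and 2 the test then recovered 199 of 200 genes changed 2-fold among 14794 genes, with 3 false calls. Reads simulated without further spread cannot show how often it calls genes between real replicates.

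Lengths, positions and 50-base windows came from GENCODE M21 (GRCm38). The windows were searched in annotated transcripts, as no genome sequence was used here. The planned genome search was replaced by this step. Principal transcripts were those with an APPRIS tag. Alternatives were other pseudocounts, filters, scalings (TMM of edgeR 4.0.16 in R 4.3.3) and lengths and each replicate left out; centring on length and the principal transcript length were chosen after seeing the data. Python 3.11.15, numpy 2.4.6, scipy 1.17.1 and pandas 2.3.3 were used. The members and lists were chosen with earlier results of these data known. Genes were named by class: catalytic subunits, the highest and lowest per kb of each class of 4 or more, the 3 widest and 3 narrowest spreads and those not detected; Psma2, Psma5, Psmd2, Psmd4, Psmd7, Psmd14, Psmg2 and Psmg3 among others were added after their values were seen. Groups of 3 libraries are too small for an outlier test. Some genes of the pathway lists are not reported here.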

Additional observations from a re-analysis of the deposited data

How the results depend on the processing

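No paired analysis was possible because there was 1 condition. Of 100 recomputed summary values, 77 moved by less than their spread or by less than 1.5 times, and so did all 240 recomputed levels of single genes. For Psma8 and Psmb11 the spread is wide (SD 9.51 and 2.02 normalized counts), so large moves stay within it. Without replicate 2 the mean of Psma8 went from 6.74 to 1.30 normalized counts, and without replicate 3 that of Psmb11 went from 2.68 to 1.66. The log2 ratios depended on the length used. Psmb8 to Psmb5 was -4.16 with no division by length, -4.22 by coding length and -5.01 by principal transcript length. Psmb9 to Psmb6 was -8.49 and -8.41 by the first 2 of these, and Psmb10 to Psmb7 was -2.57, -2.55 and -2.75. This follows from the lengths. Without each replicate in turn the ratios ran from -6.31 to -5.73, from -9.66 to -9.06 and from -1.76 to -1.38. Members called between replicates 1 and 2, 1 and 3, and 2 and 3 numbered 2, 1 and 1 at more than 2-fold and 40, 29 and 40 with no fold required, by construction. Centring on length took the core particle from 0.14 to 0.012 (coding) and -0.066 (principal transcript) in replicate 1 and to -0.0016 (principal transcript) in replicate 2. The median spread lay between 0.11 and 0.20 for proteasome genes and between 0.20 and 0.30 for all genes with a replicate left out, lowest without replicate 2. It was 0.46 for all genes with reads. Evenness of the core particle was 0.49 with no length and 0.45 by coding length, and of the regulatory particle 0.56 with no length. Depth limited Psma8, Psmb9 and Psmb11.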

Other observations

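Ubb, a polyubiquitin gene, was highest in replicate 1 and lowest in replicate 2, with 3542, 2137 and 2983 normalized counts in replicates 1, 2 and 3. Uba1, an enzyme that activates ubiquitin, ran the other way, with 6331, 12095 and 10050. Uba6, a further activating enzyme, had 249, 776 and 289, with replicate 2 apart from the others.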
